A study of Mus musculus with 14 samples.

Results

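The genes described here are 8 genes of cellular cholesterol metabolism, Srebf1, Srebf2, Insig1, Hmgcs1, Idi1, Fdft1, Sqle and Abca1, out of 21755 protein-coding genes on chromosomes 1 to 19 and X. They were given as a named list, and membership was not computed from the measured sites. However, these genes and all further gene lists below were chosen with earlier results of these data known. Every site of histone H3 acetylated at lysine 27 (H3K27ac) that overlapped the body of one of these genes, or the 20 kb before or after it, was taken. This gave 95 of the 122228 sites in the list. None of the 8 encodes a receptor for cholesterol uptake, and Abca1 exports cholesterol.

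Chromatin came from immortalised mouse embryo fibroblasts (iMEF), in which exon 4 of both endogenous Ash2l alleles was deleted and human ASH2L with an N-terminal FKBP12F36V tag was expressed from a lentiviral construct. Control and treated cells alike carried this construct, and the study worked with clones of such cells. The degrader dTAG-13 removes the tagged ASH2L, which belongs to the KMT2 methyltransferase complexes acting on lysine 4 of histone H3. Pairs of H3K27ac ChIP-seq libraries were made from cells without dTAG and from cells treated for 30 min, 2 h, 4 h, 8 h and 16 h, 12 libraries in all. The remaining 2 libraries were inputs, 1 from control cells and 1 from the 16 h time point. Positions of the sites were the only values analysed, joined over all H3K27ac libraries. No site had a level for a library, the reads behind a site were unknown, and no value below has a replicate error or a test. Effects of dTAG on these genes were therefore not analysed here. A site may have been called in treated cells only, so the list does not describe untreated cells alone. Sites were present at the promoters of 7 of 8 fibroblast marker genes. The exception was Col1a1, whose start was covered by a site with its middle further than 1 kb away. A promoter site was also found for 1 of 4 epithelial markers (Krt8), 1 of 4 blood cell markers (Csf1r, 200 bp), 1 of 2 endothelial markers (Cdh5) and 0 of 2 liver markers.

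Cells make cholesterol from acetyl-CoA through the mevalonate pathway. The transcription factors SREBP-1 and SREBP-2, encoded by Srebf1 and Srebf2, are held in the endoplasmic reticulum with SCAP and the INSIG proteins when sterols are plentiful. When sterols run low, they move to the Golgi, are cleaved, enter the nucleus and bind sterol regulatory elements (SREs) at the promoters of synthesis genes, often beside boxes for NF-Y and Sp1. When sterols are in excess, the nuclear receptors LXR induce Abca1, whose product passes cholesterol to apolipoprotein A-I. Acetylation of H3K27 marks nucleosomes beside active promoters and enhancers.

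Sites lay at the promoters of 7 of the 8 genes, and Abca1 was the exception. For comparison, 54.7% of all protein-coding genes had a promoter site, defined as a site with its middle within 1 kb of any annotated transcription start site (TSS) of the gene. At 6 of the 7 genes an interval without a site separated an upstream from a downstream site at the start. Measured as described further below, 17.2% of all protein-coding genes and 31.3% of those with a promoter site had such an interval. The measure was defined after the values had been seen. Srebf1 had no such interval, and its bases printed below all lay in a site. Sequences before the RefSeq start are shown for 4 of these genes, because the searched motifs could then be placed inside or outside the sites. That of Abca1 is shown because no site was found there. All sequences are taken from the promoter table of RefSeq for GRCm38.p6 and end at the last base before the first annotated exon in this window. Capitals mark the SRE core TCACNCCAC, or a match to it with at most 1 mismatch where there was no exact one, and the NF-Y box CCAAT, which reads ATTGG on the other strand. The stretches are chr13:119690101-119690350 (plus strand) for Hmgcs1, chr15:82147019-82147180 (plus strand) for Srebf2, chr5:28071162-28071362 (plus strand) for Insig1, chr11:60220628-60220877 (minus strand) for Srebf1 and chr4:53159896-53160145 (minus strand) for Abca1. Entries of this table were found for 6 of the 8 genes, all except Sqle and Fdft1. For Idi1 an annotated exon of the neighbouring gene Gm48574 covered this stretch, and none of it is shown.
Hmgcs1: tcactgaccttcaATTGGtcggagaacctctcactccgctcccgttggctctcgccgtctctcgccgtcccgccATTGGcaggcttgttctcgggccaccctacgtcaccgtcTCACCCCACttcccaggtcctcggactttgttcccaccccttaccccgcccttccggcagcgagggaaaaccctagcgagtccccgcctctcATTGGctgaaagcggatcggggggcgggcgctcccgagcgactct
Srebf2: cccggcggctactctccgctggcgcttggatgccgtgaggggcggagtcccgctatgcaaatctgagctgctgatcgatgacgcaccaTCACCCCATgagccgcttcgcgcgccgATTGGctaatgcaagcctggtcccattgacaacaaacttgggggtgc
Insig1: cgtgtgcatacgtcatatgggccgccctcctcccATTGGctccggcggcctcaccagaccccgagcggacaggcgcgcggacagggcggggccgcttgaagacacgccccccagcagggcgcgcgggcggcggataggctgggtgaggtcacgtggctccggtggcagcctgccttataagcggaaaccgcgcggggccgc
Srebf1: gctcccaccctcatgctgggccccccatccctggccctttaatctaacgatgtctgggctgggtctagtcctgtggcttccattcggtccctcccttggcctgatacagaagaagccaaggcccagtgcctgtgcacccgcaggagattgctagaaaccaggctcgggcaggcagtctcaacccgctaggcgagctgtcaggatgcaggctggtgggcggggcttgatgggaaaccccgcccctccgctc
Abca1: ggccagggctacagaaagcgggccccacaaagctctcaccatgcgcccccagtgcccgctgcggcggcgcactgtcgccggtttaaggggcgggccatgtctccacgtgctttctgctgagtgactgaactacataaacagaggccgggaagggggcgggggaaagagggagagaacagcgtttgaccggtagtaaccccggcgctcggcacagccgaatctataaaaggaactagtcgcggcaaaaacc

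The exact SRE core was rare among promoters and was found in 1 of the 6 genes. Of 16432 protein-coding promoters with a window from 250 bases before to 50 after the RefSeq start, 192 (1.17%) held TCACNCCAC on either strand. Hmgcs1 was the member among them, with TCACCCCAC at 119690214 to 119690222 on chromosome 13, and it was the only 1 of 17 synthesis genes with an entry. When at most 1 mismatch outside N was allowed, the share of all promoters rose to 24.4%, and Srebf2 and Insig1 were added. Srebf2 had TCACCCCAT at 82147107 to 82147115 on chromosome 15. Insig1 had GTGGCGTGT on chromosome 5 (28071403 to 28071411), a match on the minus strand in the GENCODE exon, outside the stretch printed above. A match of letters does not show that SREBP was bound there.

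Each gene was represented by the RefSeq start nearest to its main TSS. In these windows the NF-Y box CCAAT was present in 4 of the 6 genes, namely Hmgcs1, Srebf2, Insig1 and Idi1, and in 38.7% of all promoters. Among the 17 synthesis genes with an entry, 14 had it. Srebf1 had no box at the start used, but it had 1 at each of its 2 other RefSeq starts, and both lay outside sites. The Sp1 box GGGCGG was found in 6 of the 6 and in 15 of the 17, compared to 48.8% of all promoters. The E-box CACGTG was found in Insig1 and Abca1 among the members and in 8.14% of all promoters. In these 6 windows no match overlapped a match of another motif. The SRE core matches of Hmgcs1 and Srebf2, all 4 NF-Y boxes of Hmgcs1 and the single boxes of Srebf2 and Insig1 lay outside H3K27ac sites. Both NF-Y boxes of Idi1 and the Insig1 match with 1 mismatch lay inside a site. Sites covered 0% of the 250 bases before the RefSeq starts of Hmgcs1 and Abca1, 26.4% at Srebf2, 32.8% at Insig1, 61.2% at Idi1 and 100% at Srebf1. Over 9350 protein-coding genes with a promoter site and a RefSeq start the median was 64.8% (quartiles 14.0 and 100%).

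The 95 sites comprised 20 promoter sites of the 8 genes, 8 promoter sites of neighbouring genes and 67 distal sites. A distal site was one with its middle more than 1 kb from every annotated TSS of any gene. Distal sites were unevenly spread. Fdft1 had 23, Sqle 16, Srebf1 10, Hmgcs1 9, Srebf2 7 and Insig1 2, whereas Idi1 and Abca1 had 0. The map of the gene windows shows these positions.

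**Figure D1:**
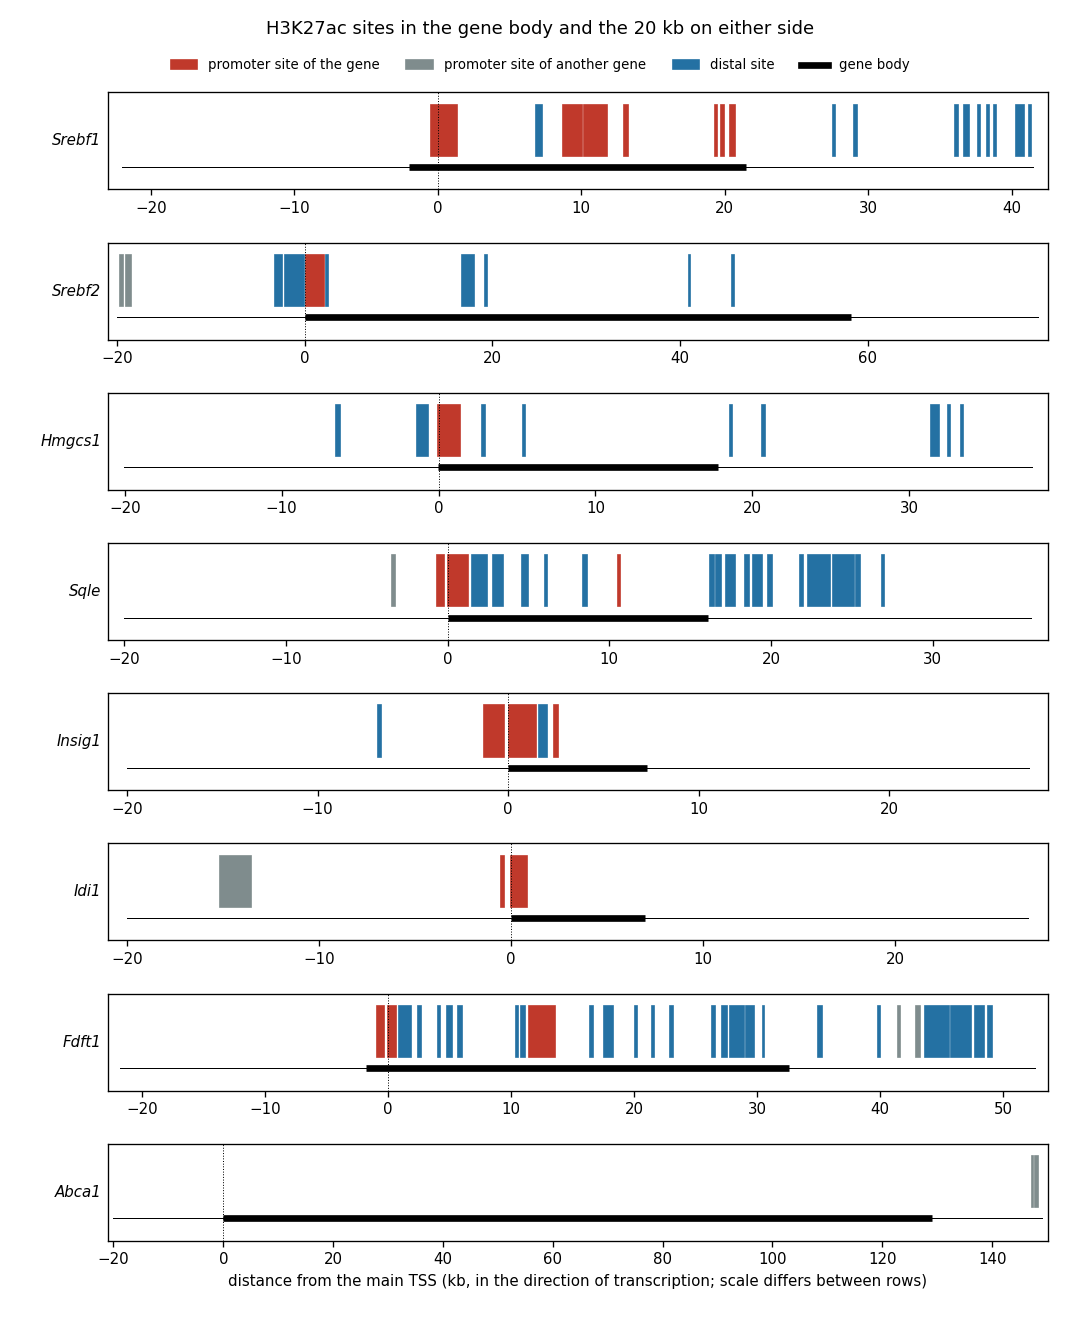
Each panel shows 1 gene with the 20 kb on either side, drawn from the main TSS in the direction of transcription (kb, with a scale of its own in each panel). Bars are sites, thin edges make the narrowest look slightly wider than they are, and the black bar is the gene body. Fdft1 and Sqle carry dense rows of distal sites in and beyond the gene, and Abca1 has only the 2 promoter sites of Nipsnap3b at the far end of its window.

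Promoter cover was taken as the share of the 2001 bases around the main TSS that lay in sites. The main TSS was that of the principal protein-coding transcript. The cover was 90.8% at Srebf2, 90.1% at Insig1, 82.7% at Fdft1, 77.3% at Sqle, 75.7% at Srebf1, 68.9% at Hmgcs1, 54.8% at Idi1 and 0% at Abca1. In this window the 2 highest values belonged to a transcription factor and a regulator of the pathway. The enzymes lay between 54.8 and 82.7%. The median of the 8 genes was 76.5%, compared to 18.7% for all protein-coding genes and 63.9% (quartiles 42.7 and 81.0%) for the 11908 with a promoter site. A cover above 50% was reached by 7 of the 8 genes and by 37.1% of all protein-coding genes. The main TSS base itself lay in a site at 6 of the 8 genes, all but Srebf2 and Abca1, compared to 38.1% of all protein-coding genes. Among genes with a promoter site, however, Srebf1, Sqle, Hmgcs1 and Idi1 lay within the quartiles. Fdft1, Insig1 and Srebf2 were above the upper quartile. The order of the genes depended on the window. With 500 bases on either side, the cover was 100% at Srebf1, 85.0% at Sqle, 81.6% at Srebf2 and Fdft1 and 80.2% at Insig1.

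The cover was larger downstream than upstream of the main TSS in 7 of the 8 genes. The share of all protein-coding genes with this order was not computed. All of the 1 kb downstream was covered at Srebf1, Hmgcs1, Sqle and Insig1, 95.5% at Srebf2, 87.1% at Fdft1 and 84.7% at Idi1. Upstream, the cover ranged from 24.8% at Idi1 and 37.7% at Hmgcs1 to 86.2% at Srebf2. Both medians of the members, 97.75% downstream and 52.9% upstream, were above those of genes with a promoter site, which were 82.0 and 48.4%. The asymmetry itself was therefore shared with promoters in general.

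A gap of at most 1000 bases between 2 sites that overlapped the region from 250 bases before to 50 after the main TSS was present at 6 of the 8 genes. This measure was defined after the values had been seen. It was met by 17.2% of all protein-coding genes, and by 31.3% of those with a promoter site. The gap was 623 bases long at Hmgcs1 (positions -699 to -77 relative to the main TSS), 321 at Idi1, 198 at Insig1, 184 at Fdft1, 184 at Srebf2 and 150 at Sqle. Their median of 191 bases was within the quartiles of 108 and 230 bases for all protein-coding genes with a gap, and Hmgcs1 and Idi1 were above them. At Srebf2 the gap contained the main TSS (positions -138 to 45), while the RefSeq start 88 bases further downstream lay in the site. At the other 5 genes it ended before the main TSS. Srebf1 was the gene with a promoter site and no gap, since a single site of 1859 bp ran across its main TSS.

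**Figure D2:**
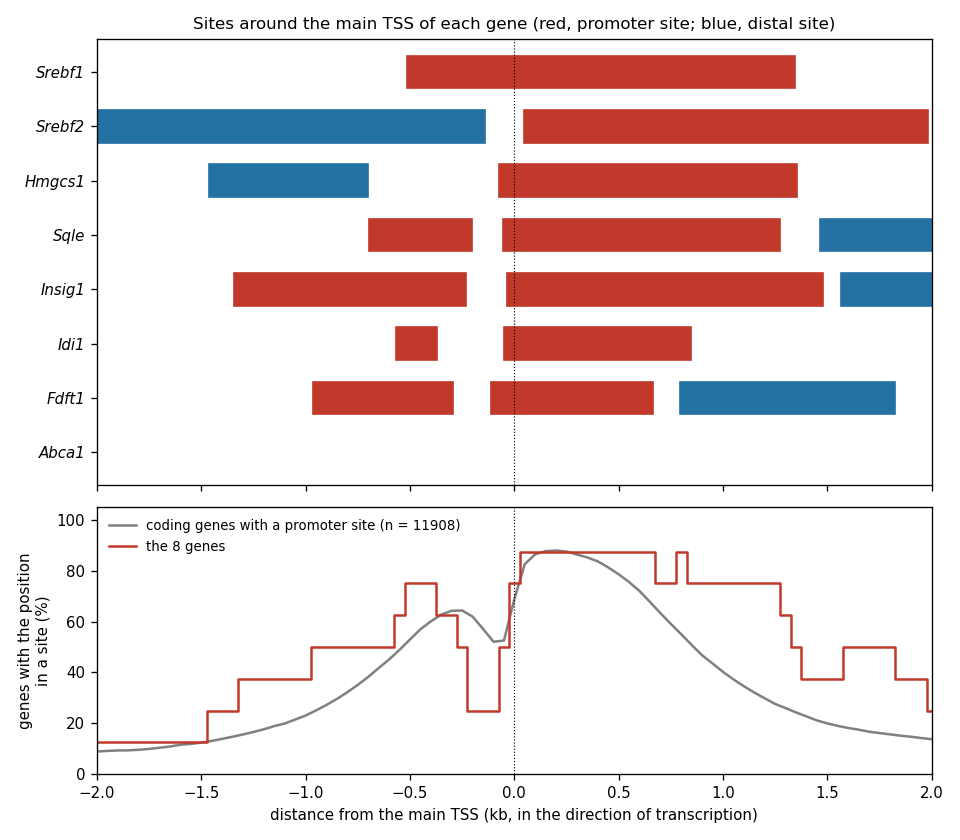
The upper panel shows the sites within 2 kb of the main TSS of each gene, in the direction of transcription (kb). The lower panel gives the percent of genes whose base at each position lies in a site, for the 8 genes and for the 11908 protein-coding genes with a promoter site; at 200 bases before the TSS this was 2 of the 8 genes and 61.9% of the comparison set, and at 200 bases after it 7 of the 8 and 87.9%.

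Position by position, fewer of the 8 genes were in a site shortly before the main TSS, and more of them further downstream, than among genes with a promoter site. The sets are unlike in that the 8 include Abca1, which has no promoter site. At 400 bases before the main TSS, 6 of the 8 genes and 60.1% of genes with a promoter site were in a site. At 200 bases before, these were 2 genes and 61.9%. At the TSS, 6 genes and 68.8% were in a site, and at 800 bases after it 7 genes and 54.9%. On either side of that position there were 6 genes, compared to 59.0% at 750 and 50.8% at 850 bases. With 8 genes, each gene weighs as much as several percentage points of the comparison set, and no test was carried out.

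Srebf1 (chromosome 11, 60199089 to 60222581, minus strand) encodes SREBP-1a and SREBP-1c, which start at different first exons. It had 7 promoter sites, the largest number of the 8 genes, spread over several annotated starts. The first, 1859 bp wide, reached from position -513 to 1345 relative to the main TSS. Another pair of 1376 and 1689 bp lay about the starts of a protein-coding and a non-coding transcript, which are 10139 and 10212 bases downstream of the main TSS. The cover around either of these starts was 96.0%, more than the 75.7% at the main TSS. The outermost annotated start, that of a non-coding transcript at position -1977, had a cover of 0%. Further promoter sites were narrow, with 342 bp near another coding start and 244, 282 and 417 bp near non-coding starts and the microRNA gene Mir6921 in the 3′ part of the gene. Of its 10 distal sites 1 was in an intron of Srebf1 itself (524 bp). The other 9 lay beyond the 3′ end in Rai1, and the list does not assign a distal site to a gene.

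Srebf2 (chromosome 15, 82147181 to 82205379, plus strand) encodes SREBP-2, the main activator of cholesterol synthesis genes. A site of 1939 bp began 46 bases after the main TSS, in the first exon and intron. A site of 2143 bp ended at position -139, and another of 818 bp lay further upstream. The 2143 bp site was the widest distal site of all 8 genes. It was counted as distal because its middle was at position -1210, although it reached the promoter. Together with the intronic site of 413 bp these formed a region of 5817 bp with less than 1 kb between neighbouring sites. The intronic sites further downstream measured 1344, 321, 209 and 340 bp. The 2 sites near the other end of the upstream window, 466 and 718 bp, were at the start of Ccdc134.

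Insig1 (chromosome 5, 28071363 to 28078662, plus strand) encodes the protein that retains SCAP and the SREBPs in the endoplasmic reticulum and is itself an SREBP target. It had a compact pattern. Sites of 1110 bp upstream and 1511 bp downstream flanked the start, and sites of 486 and 241 bp followed within the gene. A single narrow site of 245 bp was found at position -6772, in an intron of the non-coding gene Gm26608. With 4.23 distal sites per 100 kb of window it was close to the median of 3.95 for genes with a promoter site.

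Hmgcs1 (chromosome 13, 119690379 to 119708260, plus strand) encodes HMG-CoA synthase, an early enzyme of the mevalonate pathway. Its promoter site of 1429 bp reached from position -76 to 1352 relative to the main TSS. Upstream, a site of 764 bp ended at position -700. The SRE core and the NF-Y boxes printed above thus fell into the 623 bases between these sites. The intronic sites measured 242 and 200 bp. Of the 5 downstream sites, 4 lay in Nim1k, and the widest of them measured 560 bp.

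Idi1 (chromosome 13, 8885501 to 8892451, plus strand) encodes isopentenyl diphosphate isomerase, which interconverts the isoprenoid building blocks of the pathway. It is the shortest of the 8 genes and had the lowest cover of those with a promoter site. Its sites, 200 bp upstream and 896 bp downstream of the start, also lay at the start of Gm48574. There was no distal site in its 20 kb flanks. The nearest other site, 1712 bp wide, was at the starts of Wdr37 and Gm48374 and was wider than both sites of Idi1.

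Fdft1 (chromosome 14, 63145150 to 63179578, minus strand) encodes squalene synthase, the first enzyme committed to sterols. It had the most sites (28), the most distal sites (23) and the largest share of its window in sites (24.0%). At the main TSS, sites of 672 and 773 bp were separated by the gap of 184 bases, followed by a distal site of 1032 bp. The widest promoter site of all 8 genes, 2207 bp, lay within the gene at the start of the retained-intron transcript, 12757 bases downstream of the main TSS. The cover around that start was 90.1%, whereas it was 9.10% around the outermost protein-coding start at position -1785. Inside the gene body 17 distal sites were found, 16 of them in introns. The other 6 lay beyond the 3′ end in Ctsb, the cathepsin B gene, and included 2 wide sites of 2055 and 1706 bp. Ctsb also had 2 promoter sites of 251 and 369 bp in this window.

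Sqle (chromosome 15, 59315077 to 59331192, plus strand) encodes squalene epoxidase, a rate-limiting enzyme of the later pathway. Sites of 492 bp upstream and 1328 bp downstream flanked its start. Within the gene there were 5 distal sites between 204 and 979 bp and a promoter site of 233 bp at the start of a retained-intron transcript. Downstream lay 11 distal sites, 9 of them in Washc5, of which the widest measured 1431 and 1351 bp. These were wider than any promoter site of Sqle.

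Abca1 (chromosome 4, 53030787 to 53159895, minus strand) encodes the transporter that exports cholesterol to apolipoprotein A-I. No site was found in its 129.1 kb body or at either of its 2 annotated starts. The next site upstream was 36.3 kb from its 5′ end. Downstream, the next was 18044 bases from its 3′ end, a promoter site of Nipsnap3b of 360 bp with another of 772 bp behind it. A stretch of 183.5 kb around the gene was thus without a site. The distances and the following comparisons were chosen after the values had been seen. Of 843 protein-coding genes within a factor of 1.2 of the length of Abca1, 120 (14.2%) likewise had no site in the body. Its promoter was rich in CpG dinucleotides, with a ratio of observed to expected CpG of 0.696 in the 500 bases on either side of the TSS. Of 2909 protein-coding genes within 0.05 of this ratio, 564 (19.4%) had no promoter site. Absence from the list means that no peak was called at the depth and threshold used, of which the threshold was not given, and says nothing about the RNA.

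The promoter sites were wider than the distal sites of the same genes. The median width was 834.5 bp for 20 promoter sites (quartiles 327 and 1449.5 bp) and 334 bp for 67 distal sites (quartiles 247.5 and 596.5 bp), a ratio of 2.50. For promoter sites of all protein-coding genes (n = 19329) and all sites outside promoters (n = 99286), the medians were 740 and 369 bp, a ratio of 2.01. Both widths of the members were thus close to the general ones and their ranges, 200 to 2207 bp and 200 to 2143 bp, overlapped almost entirely. At Srebf1, Hmgcs1, Insig1 and Fdft1 a promoter site was wider than every distal site. At Srebf2 and Sqle a distal site was the widest. The widest promoter site per gene had a median of 1470 bp. Over genes with a promoter site it was 1141 bp, with quartiles of 756 and 1677.25 bp.

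**Figure D3:**
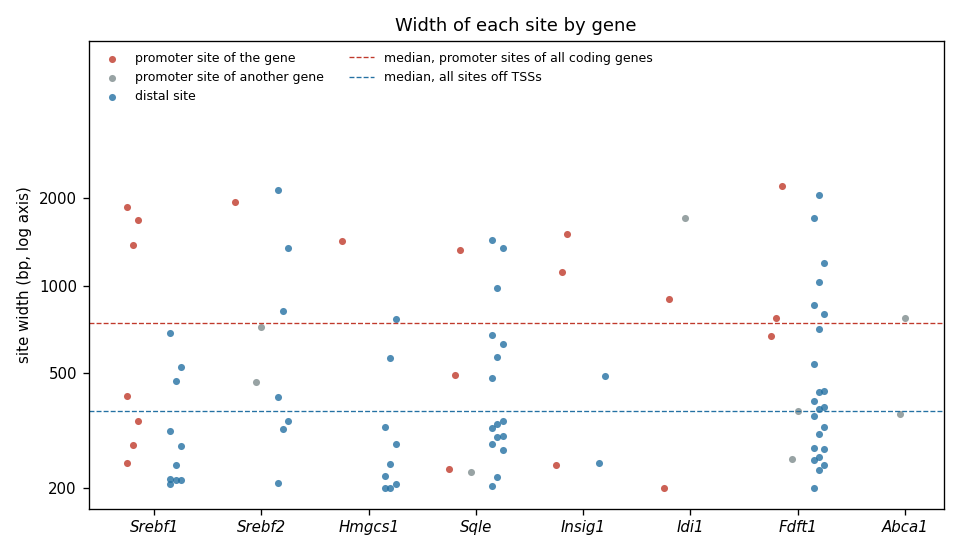
Each point is 1 site of the gene named on the horizontal axis, with its width in bp on a log axis. Dashed lines give the medians of promoter sites of all protein-coding genes (740 bp) and of all sites outside promoters (369 bp); promoter and distal sites of the 8 genes scatter around these lines and overlap in width.

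Promoter and distal sites were also described by base composition. Promoter sites had a median GC content of 54.2% and a CpG ratio of 0.435, and distal sites had 50.0% and 0.211. The shares of bases in annotated repeats were 7.03 and 8.42%. The CpG ratio around the main TSS ranged from 0.598 at Srebf1 to 0.875 at Sqle. Its median of 0.738 for the 8 genes was close to the 0.735 of protein-coding genes with a promoter site. Abca1 lay within this range. Of the bases around the main TSS, 20.5% at Abca1 were in annotated repeats, compared to 7.99% at Idi1, the next highest of the 8.

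The distal sites were counted per gene because long genes have long windows. At least 1 was present at 6 of the 8 genes, compared to 59.3% of all protein-coding genes, and 10 or more at Fdft1, Sqle and Srebf1, compared to 11.6%. With sites less than 1 kb apart joined, none of the 3 reached 10 (Fdft1 9, Sqle 6 and Srebf1 5), and Srebf1 had 3 with flanks of 10 kb and 5 without the narrowest 25% of sites. Per 100 kb of window there were 30.9 at Fdft1, 28.5 at Sqle, 15.7 at Srebf1, 15.5 at Hmgcs1, 7.13 at Srebf2 and 4.23 at Insig1. The median of 11.3 for the 8 genes compares to 3.95 for genes with a promoter site and 1.90 for all protein-coding genes. Fdft1 was above 98.8% and Sqle above 98.4% of all protein-coding genes on this scale, whereas Idi1 and Abca1 were at the bottom.

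Gene length alone did not order the members. In a comparison chosen after the values had been seen, each gene was set beside protein-coding genes with a promoter site whose length was within a factor of 1.2. Fdft1 (34.4 kb) had 23 distal sites, compared to a median of 3 (quartiles 1 and 6) over 1334 such genes. Sqle (16.1 kb) had 16, compared to a median of 2 over 1297 genes. Hmgcs1 and Srebf1, with 9 and 10, also exceeded the upper quartile of 5. Srebf2 (58.2 kb) had 7 and was within the quartiles of 2 and 10. Insig1 and Idi1 were within those of 0 and 3. Abca1 had 0, compared to a median of 9 (quartiles 4 and 19) over 585 genes of its length.

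**Figure D4:**
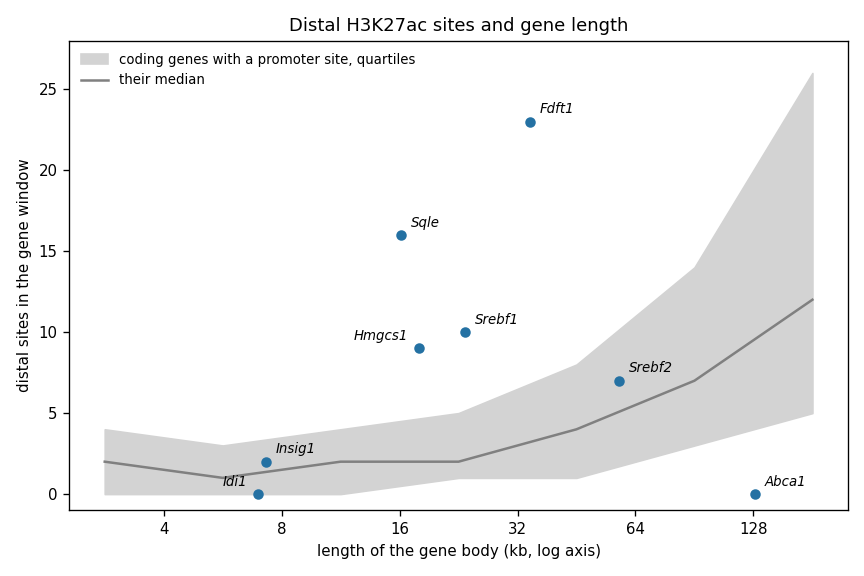
Points give the distal sites in the window of each gene against the length of the gene body (kb, log axis). The line and the grey band are the median and quartiles of protein-coding genes with a promoter site, in bins of length; Fdft1, Sqle, Srebf1 and Hmgcs1 lie above the band, Srebf2, Insig1 and Idi1 inside it, and Abca1 below it.

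The flanks held much of this signal, so the sites within the gene bodies were also counted alone. Of the 67 distal sites, 31 lay in the body of the gene itself, 28 in introns and 3 in coding exons. Another 29 lay in a neighbouring gene and 7 between genes. By position, 5 were upstream and 31 downstream of the gene. Within the body, Fdft1 still had 17, or 49.4 per 100 kb, more than 98.9% of genes of its length. Sqle had 5, more than 94.8% of genes of its length. Srebf1 had 1, so that its rank came from the sites in Rai1. Srebf2 had 5, which was within the quartiles of 1 and 6 for its length.

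The wider pathway was described from 43 genes in 4 lists (synthesis, regulation, uptake and transport, efflux and storage), with the 8 genes included. Earlier results of these data were known when these lists were chosen. A promoter site was present at 39 of the 43 (90.7%), compared to 54.7% of all protein-coding genes, and at 32 of the 35 that are not among the 8. The share of 54.7% was not matched for CpG content. The CpG ratio around the main TSS had a median of 0.570 over all protein-coding genes and 0.738 over the 8 genes. Of the 2909 genes with a ratio within 0.05 of that of Abca1, 19.4% had no promoter site. In the synthesis list, 22 of 22 had one and the median cover was 68.8%. The largest cover was found at Lbr (89.8%), a sterol reductase of the inner nuclear membrane, and Fdps, which makes farnesyl diphosphate, had 85.0%. Fdft1 and Sqle had the most distal sites per 100 kb of this list, whose median was 2.87. A site at the promoter was thus common to the whole list, whereas distal sites as dense as those of Fdft1 and Sqle were not.

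In the regulation list 9 of 9 genes had a promoter site. Srebf2 and Insig1 had the largest cover, followed by Mbtps1 (77.7%), which encodes the protease that makes the first cut in SREBPs. In the uptake and transport list, 7 of 8 had one, with a median cover of 52.6%. Npc2 (84.9%) and Npc1 (71.9%) encode proteins that release cholesterol from lysosomes. Mylip, an LXR target that encodes a ubiquitin ligase, had 22.5 distal sites per 100 kb.

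The efflux and storage list differed from the other 3 lists in that 1 of 4 genes had a promoter site. Abca1, Abcg1 and Apoe, which are LXR targets, had none. Soat1, which encodes the enzyme that esterifies cholesterol, had 2 of up to 834 bp at other starts, and a cover of 1.75% at the main TSS. Soat1 also had 11.1 distal sites per 100 kb, compared to 4.64 at Apoe. With 4 genes no statement on efflux genes as a class can be made.

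**Figure D5:**
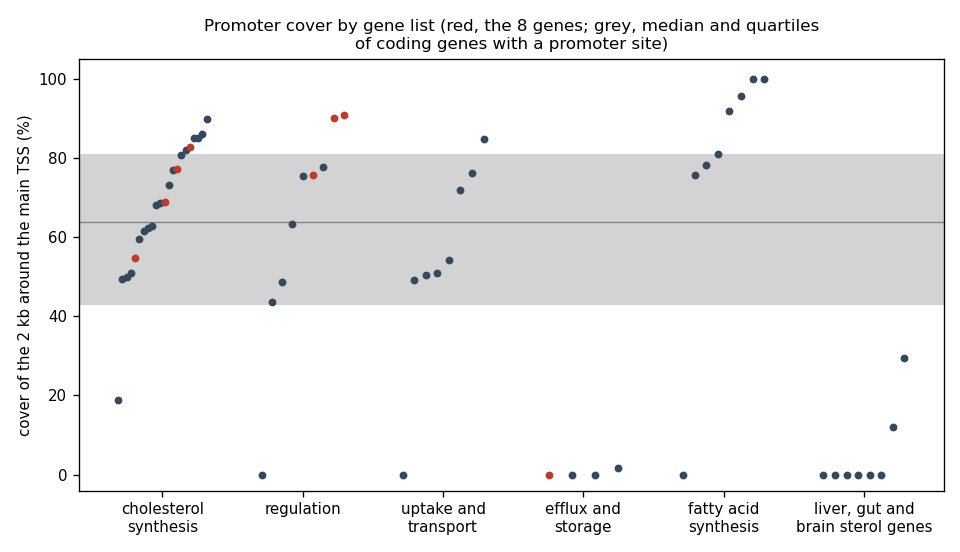
Each point is the cover of the 2 kb around the main TSS (percent) of 1 gene, grouped by list and ordered by value, with the 8 genes in red. The grey line and band are the median (63.9%) and quartiles of protein-coding genes with a promoter site; the efflux genes and 6 of the 8 liver, gut and brain genes lie at or near 0.

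Sterol genes used mainly by liver, gut or brain were listed as a contrast. Cyp7a1 and Cyp8b1, which act in bile acid synthesis, Abcg5 and Abcg8, which form a sterol transporter of liver and gut, Npc1l1, the intestinal sterol importer, and Apoa1, which encodes apolipoprotein A-I, had no promoter site and no distal site. Their CpG ratios were between 0.170 and 0.252, lower than those of the 8 genes. Cyp46a1, the cholesterol hydroxylase of neurons, had a site of 738 bp with a cover of 29.4% and a CpG ratio of 0.852. Apob, which encodes apolipoprotein B, had a narrow site of 240 bp with a cover of 12.0%, and 6 distal sites. Abca1 thus shared the absence of promoter and distal sites with 6 of the 8 contrast genes, while its CpG ratio was like that of the other members. Abcg1 of the efflux and storage list was alike in both. It had no site in its window of 100.3 kb, and its CpG ratio was 0.606.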

How the data were processed

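H3K27ac ChIP-seq was carried out in 12 libraries of iMEF cells, with 2 input libraries, which fell into 8 groups. After trimming (Trim Galore), reads were aligned by the authors to mm10 (GRCm38.p6) using BWA and filtered with SAMtools. Replicates were merged (Picard), and narrow peaks were called in MACS2 (tool names also per the submitters' processing notes). Versions, the calling threshold and how the peaks were joined are not given in the sources used here. The deposited values were positions in base pairs (chromosome, start and end of each site), without counts, scores or sample columns, so the reads behind a site were unknown. The study planned its sequencing for a minimum number of raw reads per ChIP library, and the reads obtained per library were not analysed here. If overlapping peaks were merged, a width can exceed that in any single library. Per-sample columns left unused numbered 0.

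Starts were taken as 0-based, which gave the narrowest sites a width of 200 bp, and are printed 1-based. Genes were those of GENCODE release M21 (the authors used a later release) and sequence was RefSeq GRCm38.p6, both of the build of the sites. The main TSS was the 5′ end of the protein-coding transcript with the lowest APPRIS principal number, ties being settled by the longest coding sequence. A site counted for a window if it overlapped by at least 1 base. Percentiles give the percent of genes with a lower value. All values are descriptions and no statistical test was run. Calculations used Python 3.11.15, numpy 2.4.6 and pysam 0.24.0, and plots matplotlib 3.10.9. The procedures for promoter cover, promoter sites and distal sites were tested on simulated sites, and the other procedures were not.

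The 8 genes and all lists were chosen with earlier results of these data known. Named in the text are the 8 genes, genes of the 4 pathway lists without a promoter site, the 3 with the largest cover and the 2 with the most distal sites per 100 kb of each list, all contrast genes, and neighbours with a promoter site in a window. Some genes that this rule names are not reported here. Host genes of distal sites and markers were named after their values were seen. Alternatives comprised other TSSs, promoter windows, flanks and site classes, joining of sites separated by under 1 kb, and leaving out sites below the 25% point of width (265 bp).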

Additional observations from a re-analysis of the deposited data

How the results depend on the processing

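No paired analysis was possible because positions were joined over all libraries, and for the same reason no replicate could be left out. Of 25 alternatives for the main results, 22 stayed within the limits set (1.5 times for a count, and 1 SD over the genes or sites for cover and width) and 3 moved. With sites less than 1 kb apart merged, the median promoter width was 2816 bp in place of 834.5 bp and the distal sites numbered 31 in place of 67. With the gene body alone, without flanks, 31 distal sites were counted. For single genes, 85 of 104 alternatives stayed within the limits. The cover moved in 2 of 40, both with the outermost 5′ end as TSS, to 0% at Srebf1 and 9.10% at Fdft1. The number of distal sites moved in 17 of 64. Fdft1 moved with joined sites alone (9 in place of 23), and Sqle with joined sites (6 in place of 16) and the gene body alone (5). Srebf1 moved from 10 to 5 with joined sites or without the narrowest 25%, to 1 in the gene body alone, and to 3 and 26 with flanks of 10 and 50 kb. The median cover of 76.5% ranged from 56.9% (2 kb on either side) to 84.3% (TSS of largest cover), and was 61.8% at the outermost 5′ end. The number of the 8 genes with a promoter site was 5 with a window of 500 bases and 6 with the main TSS alone, which omitted Srebf2, and 7 in the other alternatives run. The number for the 43 pathway genes fell from 39 to 34 with the main TSS alone. Because the reads behind each site and the calling threshold were unknown, a gene without a site cannot be told apart from one whose signal was below the threshold.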

Other observations

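Fatty acid synthesis is driven by SREBP-1 in many tissues, and a role of SREBP-1 at the sites was not tested. A promoter site was present at 54.7% of all protein-coding genes and at 8 of 8 genes of this pathway. Their median cover was 86.4%, above the 68.8% of the cholesterol synthesis list. Scd1 and Fads2, which encode desaturases, had a cover of 100%, and Scd2 one of 95.7%. Scd2 and Fads2 also had 33.8 and 29.1 distal sites per 100 kb, close to the 30.9 and 28.5 of Fdft1 and Sqle. Acaca, which encodes acetyl-CoA carboxylase, had a cover of 0% at its main TSS and promoter sites of up to 1704 bp at other starts. Nr1h3, the LXR-alpha gene, was alike in this, with a cover of 0% and a promoter site of 1346 bp at another start. Acaca and Nr1h3 were named after their values were seen.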
